A study of Mus musculus with 9 samples.

Results

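The mitochondrial ribosomal protein genes of MC38 cells, a mouse colon carcinoma line, were examined under 2 copper-containing treatments. Members were taken by their symbols, which had to begin with Mrpl or Mrps and a digit, and 78 of the 16509 genes in the deposited table met this rule. Of these, 49 carry a large-subunit symbol (Mrpl) and 29 a small-subunit symbol (Mrps). All 78 passed the filter on low counts and were among the 11949 genes tested. The lowest count of any member in any library was 21.

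Mitochondria keep a ribosome of their own, which reads the few mRNAs of the mitochondrial genome and makes core subunits of the respiratory chain and ATP synthase. Its RNAs are mitochondrial transcripts, whereas its proteins are encoded in the nucleus, made on cytoplasmic ribosomes and imported. The small subunit decodes the mRNA and the large subunit joins the amino acids. Some of these proteins descend from those of bacterial ribosomes, and others exist only in mitochondria.

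The 9 libraries comprised 3 of cells labelled as treated with DMSO (Ctrl), 3 of cells treated with Cu-Cys, a mixture of copper chloride and cystine, and 3 of cells treated with Cadict. Cadict is a nanoparticle of copper and cystine that also carries glucose oxidase, an enzyme that consumes glucose, and the EGFR-binding peptide GE11. The study's figure legends name PBS rather than DMSO for the sequenced control cells. Its methods give no dose or duration for the sequenced cells. All 3 groups share the same cell line, and the table's columns for Cadict carry an abbreviation (CCGE) that was matched to it by its components. The study's methods say in general that cell experiments were repeated independently, but neither they nor the labels tie each library to a culture of its own, so the p-values measure the spread between these libraries, part of which may be technical. The line is labelled as colon carcinoma. In Ctrl libraries the epithelial markers Epcam, Krt18, Krt8, Krt19 and Cdh1 averaged 0, 0.0167, 0.1, 1.33 and 1.5 FPKM, and in Cadict libraries 0.0433, 0.0833, 0.463, 6.76 and 2.03 FPKM, while the mesenchymal marker Vim averaged 1734 and 889 FPKM.

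Total counts per library lay between 17905771 and 18293056. The 100 most abundant genes held 29.8% to 31.1% of the counts in Cadict, compared with 17.2% to 17.4% in Ctrl and 17.9% to 18.2% in Cu-Cys. TMM, a scaling that assumes that most genes do not change, multiplied the totals by 1.26 to 1.27 in Ctrl, 1.21 in Cu-Cys and 0.640 to 0.665 in Cadict libraries. Directions between Cadict and another group can therefore depend on this scaling, and other scales are given beside the results. Cadict replicate 2 stood apart from the other Cadict libraries. The mean log2 of the members' CPM (read counts scaled to library size) was 5.25 there, against 4.96 and 4.90 in replicates 1 and 3.

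To ask how Cadict altered the family, Cadict libraries were compared with Ctrl libraries. With TMM scaling, 26 members rose and 6 fell by at least 2-fold with an adjusted p no higher than 0.001, the study's thresholds (edgeR quasi-likelihood test, Benjamini-Hochberg over all 11949 genes). These were 33.3% and 7.69% of the members, against 20.7% and 27.1% of all genes tested. When any size of change with an adjusted p of 0.05 or less was counted, 50 members were higher and 16 lower, against 40.6% and 47.1% of all genes, and 12 did not pass. The members' median log2 fold change was 0.54 (interquartile range 0.04 to 1.18), whereas that of all genes was -0.13. Without Cadict replicate 2, 20 members rose and 7 fell at the study's thresholds, and the median was 0.35. In these bulk libraries, fewer cells and less RNA per cell cannot be told apart.

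The balance of calls and the sign of the median depended on the library scale. At the study's thresholds, 2 members were called higher and 19 lower with library totals and on FPKM, and 2 and 29 on TPM. Counts divided by library totals moved the median of all genes by -0.95, and the members' median then fell to -0.42, with 26 members above and 52 below 0. On deposited FPKM and TPM values the members' median was -0.47 and -0.82, and with DESeq2's size factors it was 0.66. Relative to the median of all genes, the members stood 0.66 higher with TMM, DESeq2 size factors and library totals, 0.30 higher on log2(FPKM + 1), 0.55 higher on log2(FPKM + 0.1) and 0.31 higher on log2(TPM + 1), the last 3 fitted with limma. The family thus ranked above the typical gene under these 5 scales, while its own direction against Ctrl differed between them. As a share of all counts, the 78 members made up 0.276% ± 0.00293 in Ctrl, 0.313% ± 0.00265 in Cu-Cys and 0.240% ± 0.0251 in Cadict libraries (mean ± SD, n = 3).

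**Figure D1:**
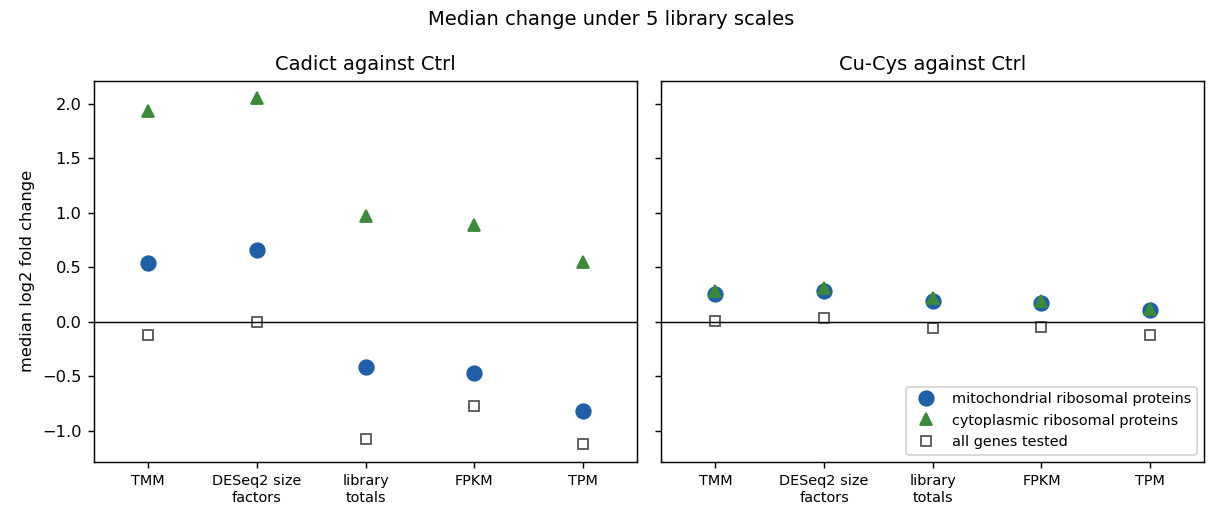
Median log2 fold change (vertical axis) of the 78 mitochondrial ribosomal protein genes, of the tested cytoplasmic ribosomal protein genes and of all 11949 tested genes under 5 library scales (horizontal axis), for Cadict and for Cu-Cys against Ctrl. In Cadict the members' median lies at 0.54 with TMM and at -0.82 on TPM, but above the median of all genes in each case.

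Since the scale moved the family as a whole, each member's direction was read under all 5 scales. Between Cadict and Ctrl, 8 members were higher at an adjusted p of at most 0.05 under every scale, namely Mrps6, Mrps18a, Mrpl32, Mrpl13, Mrpl20, Mrps28, Mrps18b and Mrps10. Another 6 were above 0 under all 5 scales without passing every test. In the other direction, 14 members were lower under every scale, among them Mrpl44, Mrpl55, Mrps2, Mrpl41, Mrpl17, Mrpl34 and the stalk proteins Mrpl10 and Mrpl12, and 3 more were below 0 throughout. For the remaining 47 members the sign differed between scales. The 8 and 14 were 10.3% and 17.9% of the members, while 11.9% of all tested genes were higher and 43.8% lower by the same rule, so that the share of members higher under every scale was close to that of all genes.

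**Figure D2:**
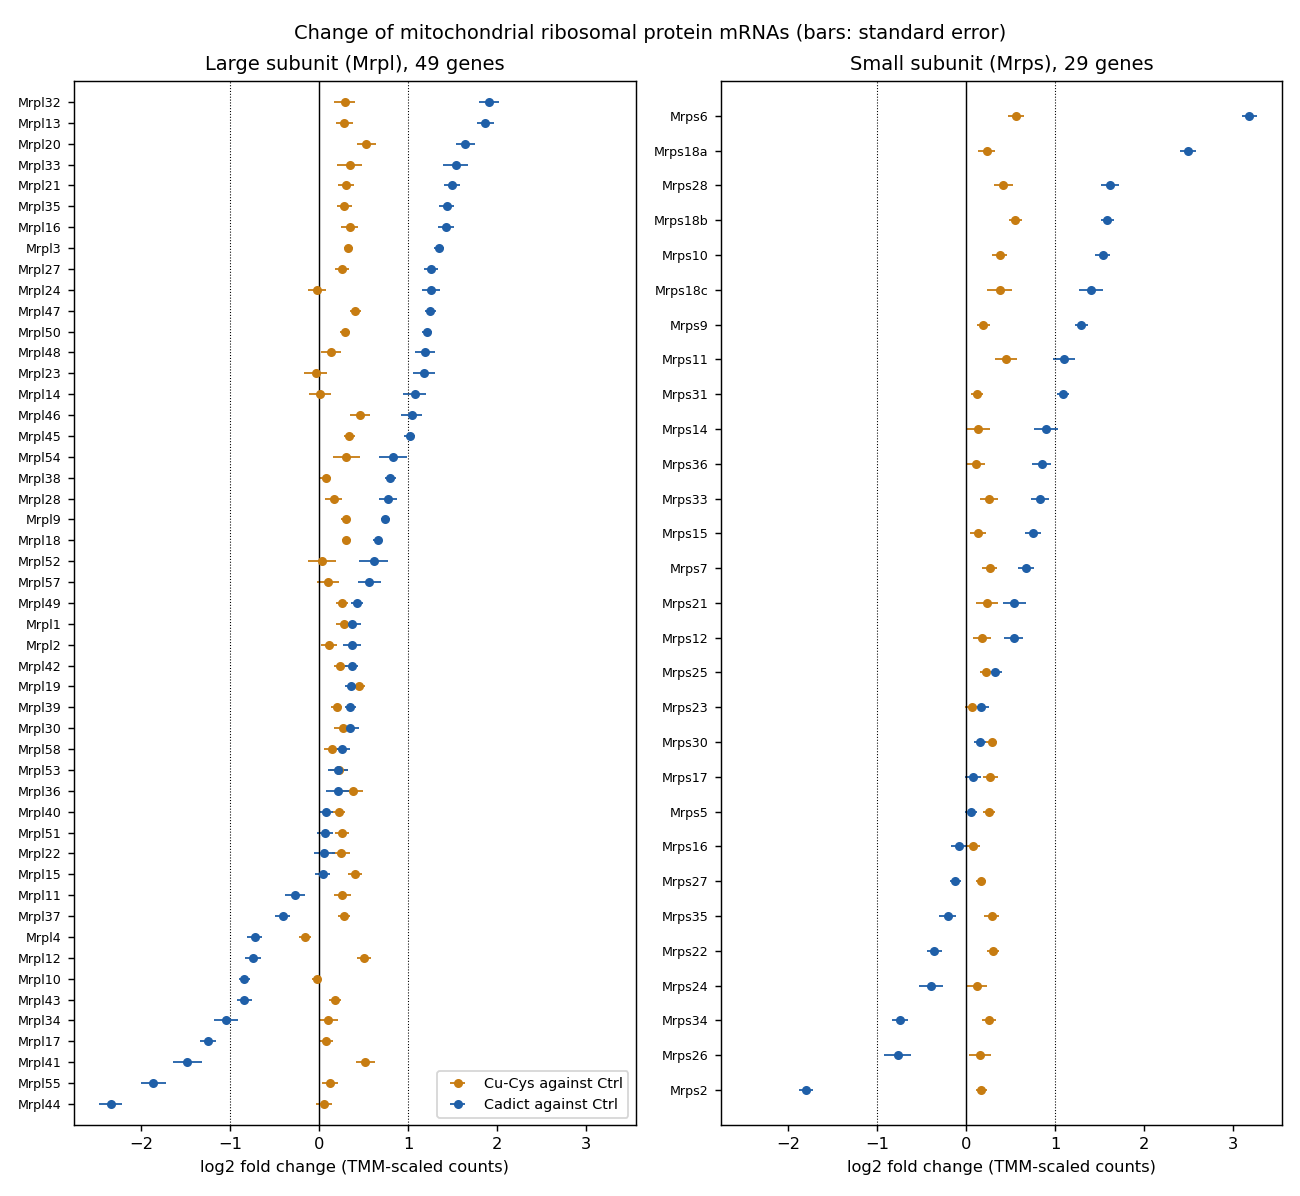
Log2 fold change with TMM scaling (horizontal axis, bars show the standard error) of each large-subunit and small-subunit member (vertical axis), for Cadict and Cu-Cys against Ctrl; dotted lines mark a 2-fold change. In Cadict the members spread from -2.34 (Mrpl44) to 3.18 (Mrps6), whereas in Cu-Cys all of them lie between -0.16 and 0.56.

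The largest rise was that of Mrps6, a small-subunit protein of the bacterial S6 family. It stood at 24.9, 23.5 and 21.4 CPM in Ctrl, at 35.3, 32.9 and 34.8 in Cu-Cys and at 197, 242 and 195 in Cadict libraries. All Cadict libraries were above all others, with a log2 fold change of 3.18 ± 0.09 (SE, edgeR adjusted p = 1.92e-14) against Ctrl. Exons of Mrps6 overlap those of Slc5a3, an inositol transporter gene, on the same strand in the GENCODE M21 annotation, and 32.2% of the 50-base stretches of its transcripts also occur in Slc5a3 or the annotated gene Gm49711. Slc5a3 itself averaged 57.0 CPM in Ctrl, 93.4 in Cu-Cys and 138 in Cadict. Reads of the shared part can be assigned to either gene, so the level of Mrps6 is uncertain by that part. How much it contributed to the rise was not tested.

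Mrps18a came next. Vertebrate mitochondria have 3 homologs of bacterial S18, of which Mrps18c and Mrps18b lie in the small subunit, whereas Mrps18a lies in the large subunit in spite of its symbol. Mrps18a was at 20.0, 21.7 and 20.0 CPM in Ctrl and at 107, 134 and 106 in Cadict, without overlap (log2 fold change 2.49 ± 0.09, edgeR adjusted p = 7.20e-13). Mrps18b was at 40.3, 43.9 and 42.9 CPM in Ctrl and 117, 145 and 121 in Cadict (1.59 ± 0.08). Mrps18c was at 11.3, 11.6 and 11.2 CPM in Ctrl and 27.4, 38.3 and 24.5 in Cadict (1.40 ± 0.14). Thus all 3 paralogs were higher with TMM, although the log2 change of Mrps18c was -0.01 on TPM. Of their 50-base stretches, 27.2% of those of Mrps18b and 14.9% of those of Mrps18c recur in other annotated genes, so their counts are uncertain by that share, whereas 0 of those of Mrps18a do. Over the family, 15 members shared more than 10% of their stretches with another gene.

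Of the members with a large-subunit symbol, Mrpl32, Mrpl13 and Mrpl20 rose most, each a homolog of the bacterial protein of the same number. Mrpl32, which is trimmed by the mitochondrial m-AAA protease before it joins the ribosome, rose from 13.4, 13.4 and 14.5 CPM in Ctrl to 48.3, 63.3 and 43.8 in Cadict (log2 fold change 1.91 ± 0.11, edgeR adjusted p = 1.31e-10). Mrpl13 rose from 49.4, 48.1 and 48.2 CPM to 167, 212 and 153 (1.87 ± 0.09). Mrpl20 rose from 25.7, 26.5 and 30.5 CPM to 84.5, 101 and 72.7 (1.64 ± 0.11). For all 3, Cadict replicate 2 was the highest library and the groups did not overlap. Mrps28, a small-subunit protein related to bacterial S1, differed in that its highest value came from Cadict replicate 1. It rose from 6.06, 6.54 and 6.41 CPM to 21.1, 19.7 and 17.5 (1.62 ± 0.10).

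The largest fall was that of Mrpl44, a large-subunit protein with a fold related to ribonuclease III. It was at 19.9, 22.4 and 20.5 CPM in Ctrl, at 22.1, 20.2 and 22.9 in Cu-Cys and at 3.14, 4.27 and 4.95 in Cadict. Cu-Cys and Ctrl libraries overlapped, while Cadict libraries lay below both, with a log2 fold change of -2.34 ± 0.13 against Ctrl (edgeR adjusted p = 5.60e-11). Mrpl55, the counterpart of bacterial L31 at the top of the large subunit, went from 11.8, 13.1 and 13.1 CPM to 2.55, 3.66 and 4.20 (-1.86 ± 0.14). Mrps2, the homolog of bacterial S2, went from 41.1, 39.7 and 42.9 CPM to 11.05, 12.1 and 12.4 (-1.80 ± 0.08), and was the only small-subunit member called lower at the study's thresholds with TMM. Fewer reads stood behind these low values, since 1 CPM equals fewer counts in Cadict libraries than in the others.

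Mrpl41, a mitochondria-specific protein, was at 6.06, 6.93 and 6.58 CPM in Ctrl, rose to 9.27, 10.2 and 8.57 in Cu-Cys and was at 2.55, 2.70 and 1.76 in Cadict. It was thus higher than Ctrl in one treatment (log2 fold change 0.52 ± 0.11, edgeR adjusted p = 1.20e-03) and lower in the other (-1.48 ± 0.16, edgeR adjusted p = 3.64e-07), and both directions held under all 5 scales. Few counts stood behind its Cadict values. Of its 50-base stretches, 11.3% recur in another annotated gene, so its counts are uncertain by that share. Mrpl17, a protein near the exit of the tunnel through which the new chain leaves, went from 29.4, 27.6 and 29.6 CPM in Ctrl to 11.4, 13.9 and 11.2 in Cadict (-1.25 ± 0.09). Mrpl34, one of the smallest proteins of the family, went from 14.1, 16.0 and 14.2 CPM to 5.69, 9.50 and 6.30 (-1.05 ± 0.14), with Cadict replicate 2 again the highest of its group.

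**Figure D3:**
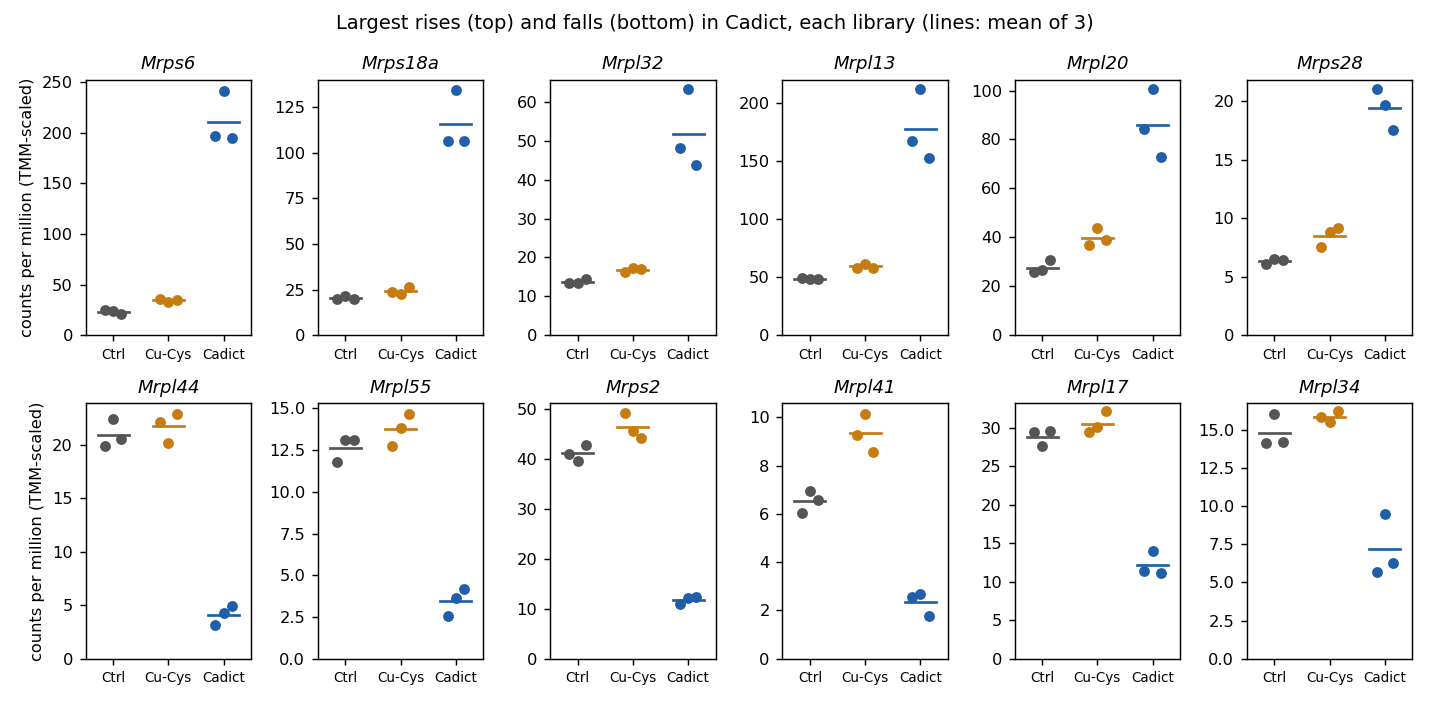
TMM-scaled CPM (vertical axis, from 0) of the 6 members with the largest rises and the 6 with the largest falls in Cadict, in each of the 3 Ctrl, 3 Cu-Cys and 3 Cadict libraries (points; lines show the group mean). The members shown were chosen by size of change among those called in these same libraries, so a gap between groups follows from the choice. Cadict points run from 195 to 242 for Mrps6 and from 3.14 to 4.95 for Mrpl44.

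The upstream sequences of the 3 largest rises and the 3 largest falls are shown because these genes moved in opposite directions within a set of proteins that are needed together. Each is the 250 bases before the RefSeq transcription start on build GRCm38.p6, 5′ to 3′ on the gene's own strand, which is not the build named by the labels. Capitals mark matches on either strand to the letters CCGGAAG (ETS factors), CGCATGCG (the core of the NRF1 site), ATGGCGG (YY1) and GGGCGG (SP1).
Mrps6 (chr16:92058086-92058335, plus strand): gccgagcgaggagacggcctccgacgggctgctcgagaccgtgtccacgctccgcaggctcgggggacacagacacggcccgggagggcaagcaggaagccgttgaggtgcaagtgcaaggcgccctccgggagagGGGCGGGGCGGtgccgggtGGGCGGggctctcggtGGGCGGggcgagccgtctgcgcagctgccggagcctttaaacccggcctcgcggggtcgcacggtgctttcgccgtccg
Mrps18a (chr17:46110754-46111003, plus strand): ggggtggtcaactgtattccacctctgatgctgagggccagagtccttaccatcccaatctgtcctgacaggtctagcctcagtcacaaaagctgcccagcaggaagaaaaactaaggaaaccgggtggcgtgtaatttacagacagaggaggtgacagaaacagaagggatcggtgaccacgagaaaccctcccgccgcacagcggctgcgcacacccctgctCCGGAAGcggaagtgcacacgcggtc
Mrpl32 (chr13:14613038-14613287, minus strand): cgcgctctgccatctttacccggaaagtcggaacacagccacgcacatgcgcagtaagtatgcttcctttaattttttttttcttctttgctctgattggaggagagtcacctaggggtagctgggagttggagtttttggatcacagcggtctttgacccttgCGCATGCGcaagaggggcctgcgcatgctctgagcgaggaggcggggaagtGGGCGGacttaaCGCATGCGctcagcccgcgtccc
Mrpl44 (chr1:79775768-79776017, plus strand): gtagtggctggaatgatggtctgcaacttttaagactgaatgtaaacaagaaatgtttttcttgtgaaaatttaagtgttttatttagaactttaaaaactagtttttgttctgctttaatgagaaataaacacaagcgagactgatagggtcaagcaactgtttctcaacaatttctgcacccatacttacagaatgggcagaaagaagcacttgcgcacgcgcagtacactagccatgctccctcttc
Mrpl55 (chr11:59202236-59202485, plus strand): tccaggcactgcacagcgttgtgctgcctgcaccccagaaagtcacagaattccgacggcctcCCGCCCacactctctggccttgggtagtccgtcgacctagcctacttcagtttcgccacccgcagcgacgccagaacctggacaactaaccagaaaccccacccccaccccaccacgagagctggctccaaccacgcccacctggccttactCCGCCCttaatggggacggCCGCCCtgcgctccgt
Mrps2 (chr2:28467816-28468065, plus strand): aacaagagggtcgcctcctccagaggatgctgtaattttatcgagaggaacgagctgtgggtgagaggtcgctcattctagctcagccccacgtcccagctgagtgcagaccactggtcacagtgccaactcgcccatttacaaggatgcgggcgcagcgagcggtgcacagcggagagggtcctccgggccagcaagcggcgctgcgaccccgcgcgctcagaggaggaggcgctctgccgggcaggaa

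The region before Mrps6 held 4 SP1 matches, and that before Mrpl32 held a pair of NRF1 cores. The region before Mrps18a held an ETS match, and that before Mrpl55 held 3 SP1 matches. The bases shown for Mrpl44 and Mrps2 held none of these 4 motifs. RefSeq windows of 300 bases, from 250 before to 50 after the start, were at hand for 69 of the 78 members. An ETS match was present in 37.7% of these, against 21.0% of the windows of 9550 tested genes and 9.93% of all 27025 genes with a window. The NRF1 core was present in 10.1%, 4.5% and 2.07%, and the YY1 motif in 18.8%, 9.92% and 4.69%, in the same order. SP1 matches went the other way against tested genes only, with 49.3% of members, 69.6% of tested genes and 38.2% of all genes. 4 other motifs were searched on both strands without being capitalised. CCAAT, the NF-Y motif, was present in 39.1% and 43.8%, CACGTG, the E-box, in 7.25% and 11.8%, TGACGTCA, the CRE, in 2.90% and 3.59% and TATAAA, the TATA box, in 7.25% and 8.32% of members and tested genes. Among members, an ETS match was found for 8 of the 24 called higher in Cadict, 2 of the 6 called lower and 16 of the 39 not called. These shares describe letters in a window and say nothing of binding.

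Some members lie head to head with another gene. The start of a coding gene on the opposite strand lay within 1000 bases upstream for 18 of 78 members (23.1%), against 10.8% of 11550 tested coding genes in the GENCODE M21 annotation. Exons of 24 members overlap exons of a gene on the opposite strand, and Mrpl46 and Mrps11, from different subunits, overlap each other in this way. Mrpl46 was at 6.83, 8.14 and 8.76 CPM in Ctrl, 11.9, 10.8 and 9.90 in Cu-Cys and 14.4, 18.5 and 16.0 in Cadict. Mrps11 was at 11.7, 12.9 and 11.5 CPM in Ctrl, 16.0, 16.8 and 16.6 in Cu-Cys and 25.9, 31.5 and 20.0 in Cadict. With TMM, their log2 fold changes in Cadict were 1.04 ± 0.12 and 1.10 ± 0.12 and those in Cu-Cys 0.46 ± 0.11 and 0.45 ± 0.12. The signs in Cadict, but not those in Cu-Cys, differed between scales. Whether the counting used strand is not stated, so reads of the overlap cannot be told apart.

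The 3 proteins of the stalk, which recruits translation factors to the large subunit, were lower in Cadict than in Ctrl. With TMM each passed an adjusted p of 0.05 (edgeR), as did 47.1% of all genes in that direction. At the study's thresholds 0 of the 3 were called, against 27.1% of all genes lower. Mrpl10, which anchors the stalk, was at 59.9, 57.6 and 59.0 CPM in Ctrl, 60.3, 56.7 and 56.1 in Cu-Cys and 32.8, 32.5 and 33.3 in Cadict (log2 fold change -0.84 ± 0.06, edgeR adjusted p = 1.05e-09 against Ctrl). Mrpl12, which contacts the factors, was at 38.6, 41.8 and 40.6 CPM in Ctrl, 57.4, 56.7 and 57.4 in Cu-Cys and 21.8, 29.2 and 21.7 in Cadict. It was higher than Ctrl in Cu-Cys (0.50 ± 0.08, edgeR adjusted p = 1.31e-04) and lower in Cadict (-0.74 ± 0.09, edgeR adjusted p = 1.31e-06). Mrpl11, at the base of the stalk, was at 34.9, 34.1 and 31.9 CPM in Ctrl, 42.3, 39.5 and 39.2 in Cu-Cys and 24.6, 35.5 and 23.7 in Cadict. Its Cadict and Ctrl libraries overlapped, and its log2 fold change of -0.27 ± 0.11 (edgeR adjusted p = 0.0323) failed the test without Ctrl replicate 1 (adjusted p = 0.0863), Ctrl replicate 2 (0.0663), Cadict replicate 1 (0.162) or Cadict replicate 3 (0.157).

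Other sites of the large subunit were mixed. Of 6 proteins around the tunnel exit, 4 were called higher in Cadict with TMM (Mrpl24, Mrpl47, Mrpl23 and Mrpl45, log2 fold changes 1.01 to 1.26) and 1 lower (Mrpl17), while Mrpl22 was at 0.06. The signs of these 4 rises differed between scales. Of 8 proteins of the central protuberance, the knob at the top of the subunit, Mrpl27, Mrpl48 and Mrpl46 were called higher (1.26, 1.19 and 1.04) and Mrpl55 lower. Of these rises, that of Mrpl48 kept its sign under all 5 scales. Members of a bacterial family numbered 46 and had a median log2 fold change of 0.71, with 19 (41.3%) called higher and 4 (8.70%) lower. The 31 mitochondria-specific members, among which Mrps18a and Mrps18b were counted by their unified names, had a median of 0.33, with 7 (22.6%) called higher and 2 (6.45%) lower, against 20.7% and 27.1% of all genes. With library totals both medians were negative, at -0.25 and -0.63, and on TPM they were -0.61 and -0.92. The difference between the 2 sets was not tested. Mrps36, which is now known as a subunit of the 2-oxoglutarate dehydrogenase complex, was left out of this division.

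Large and small subunits were compared next. With TMM and subunits by symbol, 17 of 49 large-subunit members (34.7%) were called higher and 5 (10.2%) lower, with a median log2 fold change of 0.43. Of 29 small-subunit members, 9 (31.0%) were called higher and 1 (3.45%) lower, with a median of 0.54. Of all genes, 20.7% were called higher and 27.1% lower. The unified names place Mrps18a and another gene with an Mrps symbol in the large subunit, and Mrps36 is left out. By them, 18 of 51 large-subunit members were called higher and 5 lower (median 0.43). Of 26 small-subunit members, 8 were called higher and 1 lower (median 0.54). The difference between the medians, large minus small, was -0.11, but it was -0.22 without Cadict replicate 3 and 0.02 on FPKM and on TPM. A ratio taken within each library does not depend on the library scale. The counts of the large subunit over those of the small subunit were 1.85 ± 0.00703 in Ctrl, 1.84 ± 0.00458 in Cu-Cys and 1.61 ± 0.0319 in Cadict (SD, n = 3). The Cadict libraries, at 1.64, 1.58 and 1.62, did not overlap the others. When Mrps6 was left out, the ratio was 1.91 ± 0.00236 in Ctrl, 1.91 ± 0.00335 in Cu-Cys and 1.90 ± 0.0387 in Cadict. With subunits taken from the symbols, the lower ratio of counts in Cadict thus rested on this gene. Mrps18a, which rose in Cadict and lies in the large subunit, is counted as small in these ratios. So are Mrps36 and the other Mrps gene that the unified names move. A ratio by the unified names was not computed.

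**Figure D4:**
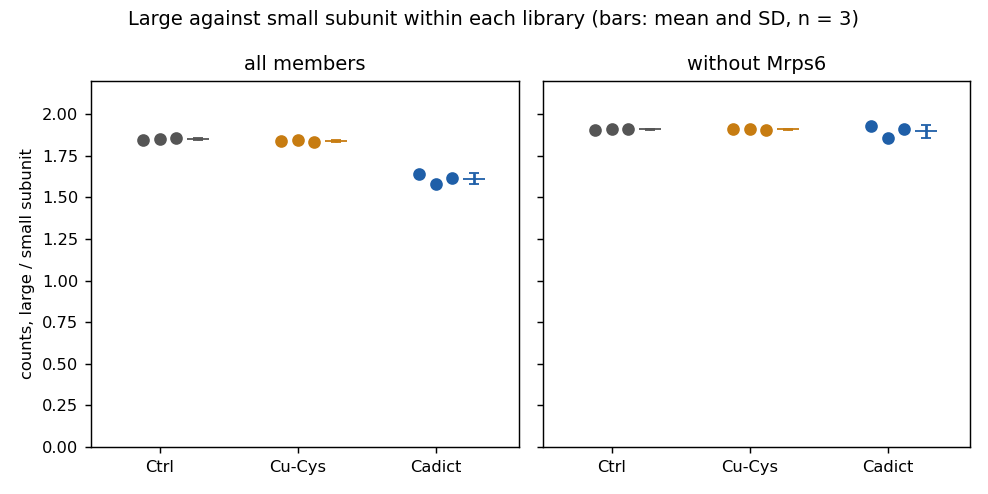
Counts of all large-subunit members divided by counts of all small-subunit members (vertical axis, from 0) in each library of the 3 groups, for all members and without Mrps6 (points are libraries; bars show the mean and SD of 3). With Mrps6 the Cadict libraries lie between 1.58 and 1.64, below the others, and without it their mean is 1.90, against 1.91 in Ctrl. Subunits are taken from the symbols, so Mrps18a, another gene placed in the large subunit by its unified name, and Mrps36 count as small.

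A measure in which each gene weighs the same was taken as well. The mean log2 CPM of the large minus that of the small subunit was 0.10 ± 0.02 in Ctrl, 0.08 ± 0.02 in Cu-Cys and -0.08 ± 0.01 in Cadict. Without Mrps6 it was 0.10 ± 0.01, 0.09 ± 0.02 and 0.02 ± 0.01. By this measure the Cadict libraries, at 0.0101 to 0.0335, still lay below all others, of which the lowest was 0.0758 (Cu-Cys replicate 2). Subunits were again taken from the symbols, with Mrps18a, the other Mrps gene of the large subunit and Mrps36 counted as small. Mrps6 made up 1.07% ± 0.0927 of the family's counts in Ctrl, 1.33% ± 0.0567 in Cu-Cys and 5.75% ± 0.124 in Cadict. Mrpl13 went from 2.23% ± 0.0669 to 4.81% ± 0.224 and Mrpl10 from 2.70% ± 0.0947 to 0.905% ± 0.118 between Ctrl and Cadict. The 5 members with the most counts held 13.1% of the family's counts in Ctrl, 13.2% in Cu-Cys and 21.3% in Cadict.

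Levels between genes were compared as FPKM, deposited read counts scaled by transcript length and depth, which the authors computed with library totals. In Ctrl the members ran from 3.95 to 203 FPKM, with a median of 40.8. Highest were Mrps21 (203 ± 12.3, SD, n = 3), the homolog of bacterial S21, Mrpl42 (148 ± 2.64) and Mrpl33 (146 ± 8.08). Of their 50-base stretches, 11.8%, 16.6% and 30.3% recur in other annotated genes, so their counts are uncertain by that share. Their longest annotated transcripts have 488, 666 and 478 bases, and FPKM divides by length. How far length sets their rank was not tested. Mrpl42 and Mrpl33 were within their spread of each other and below Mrps21. Lowest were Mrpl41 (3.95 ± 0.252), Mrpl57 (5.26 ± 0.363) and Mrpl17 (5.73 ± 0.231), of which the last 2 did not differ beyond their spread. The order was nearly the same in Cu-Cys (Spearman's rho 0.984 across the 78 genes, which share their libraries and are not independent) and less so in Cadict (0.797). In Cadict the range widened to 0.727 for Mrpl41 and 299.6 for Mrps6, and Mrpl33 (202 ± 52.6) stood above Mrps21 (140.4 ± 36.7) and Mrpl42 (94.4 ± 10.2).

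**Figure D5:**
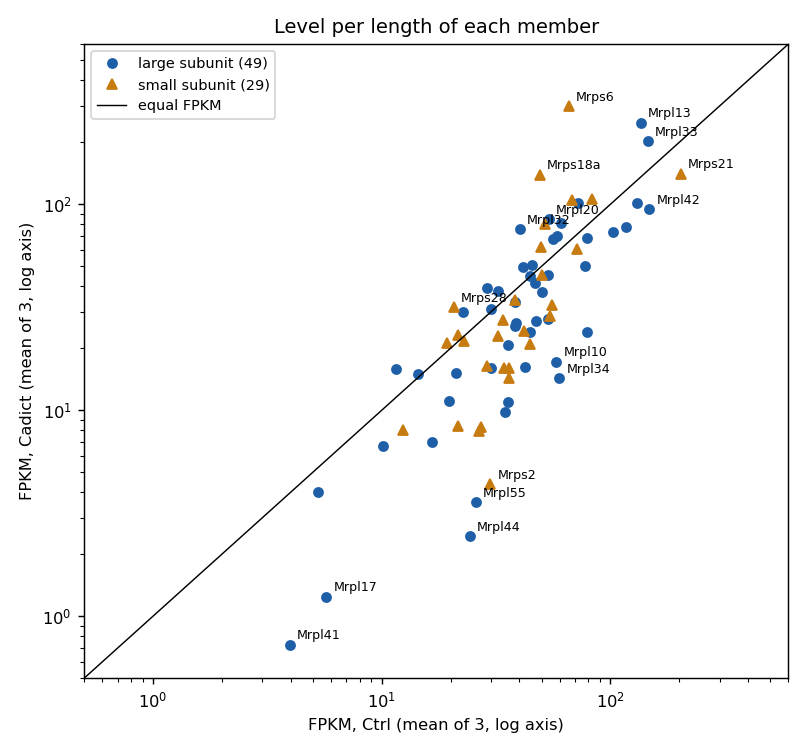
Mean FPKM of each member in Ctrl (horizontal log axis) against Cadict (vertical log axis), with large-subunit members as circles, small-subunit members as triangles and a line at equal FPKM. Most members lie below the line, Mrps6 (65.8 against 299.6) is farthest above it, and Mrpl44 (24.3 against 2.44) is farthest below.

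In CPM, Mrps21 was at 24.8, 24.6 and 26.0 in Ctrl, 29.0, 29.7 and 30.3 in Cu-Cys and 35.7, 47.0 and 27.1 in Cadict, so that its direction in Cadict was higher with TMM (log2 fold change 0.54) and lower on FPKM (-0.56). Mrpl42 was at 40.0, 39.0 and 39.3 CPM in Ctrl, 43.9, 47.8 and 47.7 in Cu-Cys and 47.9, 58.1 and 46.3 in Cadict (0.36 with TMM, -0.64 on FPKM). Mrpl33 was at 15.7, 17.6 and 15.3 CPM in Ctrl, 21.3, 20.6 and 19.8 in Cu-Cys and 44.3, 60.8 and 36.0 in Cadict (1.53 with TMM). Mrpl57, among the lowest, was at 7.79, 8.53 and 8.89 CPM in Ctrl, 8.44, 8.19 and 10.3 in Cu-Cys and 12.1, 14.9 and 10.3 in Cadict (0.56 with TMM, -0.33 on FPKM). The transcript length implied by count and FPKM had a median of 738 bases over the members and 2621 over 11851 tested genes. Across genes, length and the log2 change in Cadict had a Spearman's rho of -0.26 over the members and -0.20 over all genes, which is given as a description. In Cu-Cys rho was 0.02 over the members and -0.20 over all genes.

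To ask what copper and cystine did without the nanoparticle's other parts, Cu-Cys was compared with Ctrl. At the study's thresholds 0 members were called in either direction, against 0.167% of all genes higher and 1.47% lower (edgeR; DESeq2's Wald test also called 0). The changes were small but mostly of one sign. At an adjusted p of at most 0.05, 46 members were higher and 0 lower (58.97% of the family), against 22.6% and 22.4% of all genes, and at an unadjusted p of at most 0.05, 51 were higher and 1 lower. DESeq2 gave 51 higher and 0 lower. The median log2 fold change was 0.26, against 0.01 for all genes, and 74 of 78 members were above 0, including 29 of 29 of the small subunit. This was not particular to the family. The 84 tested cytoplasmic ribosomal protein genes had a median of 0.28, with 84 above 0, and 51 higher and 0 lower at an adjusted p of 0.05. The members' median stayed positive on every scale, from 0.10 on TPM to 0.28 with DESeq2 size factors, while members below 0 numbered 7 with library totals, 10 on FPKM and 21 on TPM. The count of members higher at 0.05 varied between 27, without Cu-Cys replicate 2, and 55, without Cadict replicate 2 (all 9 libraries share 1 estimate of the spread). It was 28 without Ctrl replicate 1.

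Under all 5 scales, 14 members were higher in Cu-Cys than in Ctrl at an adjusted p of at most 0.05, and 0 were lower. These were 17.9% and 0% of the members, against 7.27% and 19.7% of all tested genes. The 3 largest rises were those of Mrps6 (log2 fold change 0.56 ± 0.09, edgeR adjusted p = 1.56e-04), Mrps18b (0.56 ± 0.08, edgeR adjusted p = 4.11e-05) and Mrpl20 (0.53 ± 0.11, edgeR adjusted p = 1.01e-03). Mrps18b was at 64.8, 59.1 and 62.9 CPM in Cu-Cys, above all Ctrl libraries and below all Cadict libraries. Mrpl20 was at 36.7, 44.0 and 38.8 CPM in Cu-Cys, likewise between the groups. No member was lower at an adjusted p of 0.05, so no fall is named. Set beside the Cadict values, which use the same Ctrl libraries, the log2 fold change of Mrps28 was 0.42 in Cu-Cys and 1.62 in Cadict, that of Mrpl12 was 0.50 and -0.74 and that of Mrpl41 was 0.52 and -1.48.

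Between the treatments, Cadict against Cu-Cys, 20 members were called higher and 8 lower with TMM at the study's thresholds, against 18.6% and 23.6% of all genes. At an adjusted p of at most 0.05, 43 were higher and 20 lower, against 40.3% and 45.6%. The median log2 fold change was 0.33, with -0.10 for all genes, and turned to -0.56 with library totals. Without Cadict replicate 2, 11 members were called higher and 10 lower, 39 were higher and 28 lower at 0.05, and the median was 0.18. With library totals 2 members were called higher and 27 lower at the study's thresholds, and on TPM 2 and 34. Under all 5 scales, by which 11.4% of all genes were higher and 42.4% lower, 4 members were higher (Mrps6, Mrps18a, Mrpl32 and Mrpl13) and 19 lower, among them Mrpl44 (-2.40), Mrpl41 (-2.0), Mrpl55 (-1.98), Mrps2 (-1.97) and Mrpl12 (-1.24).

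Other genes of the same pathway gave a frame for the members. The 5 subunit genes with other names (Dap3, Ptcd3, Chchd1, Aurkaip1 and Gadd45gip1) had a median log2 fold change of 0.40 between Cadict and Ctrl with TMM. It was -0.55 with library totals, -0.56 on FPKM and -0.91 on TPM. At the study's thresholds 0 of them were called. At an adjusted p of 0.05, 3 were higher and 0 lower (edgeR), against 40.6% and 47.1% of all genes. Unadjusted, these counts were 4 and 0. Of 85 cytoplasmic ribosomal protein genes, 84 were tested, 80 were called higher and 0 lower, with a median of 1.93 that stayed positive under all 5 scales (0.55 on TPM). The factors that work with or build the mitochondrial ribosome had negative medians. Of 14 tested mitochondrial translation factors, 2 were called higher and 6 lower (median -0.84). Of 26 assembly factors, 1 was called higher and 12 lower (median -0.79). Of 11 genes of mitochondrial transcription and DNA maintenance, 1 was called higher and 7 lower (median -1.27). Among all tested genes, 20.7% were called higher and 27.1% lower. The medians of these 3 lists were negative under all 5 scales, but so was that of all genes. The latter was -0.13 with TMM, -0.01 with DESeq2 size factors, -1.08 with library totals, -0.78 on FPKM and -1.13 on TPM. Each list's median lay below it on every scale. In Cu-Cys 0 genes of any of these lists were called at the study's thresholds. At an adjusted p of 0.05 the 3 lists had 5, 9 and 4 genes higher and 1 each lower, against 22.6% and 22.4% of all genes.

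Taco1, which activates translation of a cytochrome oxidase mRNA, was at 15.6, 16.5 and 14.4 CPM in Ctrl and 0.425, 1.05 and 0.420 in Cadict (log2 fold change -4.61 ± 0.21). Mtfmt, which formylates the initiator methionine, was at 8.0, 7.53 and 6.89 CPM and 0.510, 1.13 and 1.18 (-2.98 ± 0.20). Mtrf1, a release factor homolog, was at 5.97, 6.23 and 6.76 CPM and 0.680, 2.0 and 1.26 (-2.27 ± 0.22). In all 3 the Cadict libraries lay below every Ctrl library. Few counts stood behind the Cadict values, so the size of these falls is less certain than the SE shows. Over the alternatives the log2 fold changes ran from -5.56 to -3.54 for Taco1, -3.93 to -2.28 for Mtfmt and -3.21 to -2.02 for Mtrf1.

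Of the assembly factors, Ddx28, an RNA helicase of large-subunit assembly, was at 15.6, 17.5 and 17.1 CPM in Ctrl and 0.765, 1.22 and 1.43 in Cadict (-3.87 ± 0.17). Its fold change ran from -4.82 to -3.33 over the alternatives. Mrm3, a methyltransferase of the large ribosomal RNA, was at 13.7, 12.9 and 12.8 CPM and 1.19, 2.0 and 1.76 (-2.99 ± 0.14). Rpusd3, a pseudouridine synthase, was at 1.69, 1.99 and 2.57 CPM in Ctrl and at 0, 0.174 and 0.0840 in Cadict, too few counts for a fold. Among the transcription genes, Mterf2, a member of the termination factor family, was at 8.78, 9.05 and 9.2 CPM and 1.10, 1.31 and 1.60 (-2.75 ± 0.17). Mterf1b and Mterf1a, near-identical copies between which reads may be split, had log2 fold changes of -3.31 ± 0.28 and -2.23 ± 0.22.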

How the data were processed

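RNA of MC38 cells was sequenced in 9 libraries, 3 per group, and all libraries entered the analysis. Per the labels, total RNA was purified on columns, enriched for polyadenylated RNA with oligo(dT) and read on a DNA nanoball instrument, whereas the study's methods describe other reagents and another platform. The submitters' processing notes name HISAT2 2.1.0, Bowtie2 2.3.4.3, RSEM 1.3.1 and the builds GRCh38.p13 and GRCm39, without roles. The authors deposited expected counts per gene from RSEM, of which 9.77% were not whole, beside FPKM and TPM values that the authors computed from the same reads. Size-factor counts and group averages (21 columns) were not used.

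Expected counts were rounded and fitted with edgeR 4.0.16 in R 4.3.3 (filterByExpr, TMM, quasi-likelihood test, Benjamini-Hochberg over 11949 genes), with 1 fit of the 3 groups and no covariate. Calls used the study's thresholds (at least 2-fold, adjusted p at most 0.001) or an adjusted p of at most 0.05. DESeq2 1.42.0, limma 3.58.1 on log2(FPKM + 1), log2(FPKM + 0.1) and log2(TPM + 1), other scalings and filters, a replicate block and the omission of each library were alternatives. Fold changes with a pseudocount understate changes of low genes. The 5 scales are TMM, DESeq2 size factors, library totals, FPKM and TPM. Scripts were tested on simulated data. A count of 3 equalled 0.164 to 0.168 CPM of library totals, and such floors cover counting error only.

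Members and lists were chosen with earlier results of these data known. Values per library are given for the 6 largest rises and falls in Cadict, the 3 largest rises in Cu-Cys, the S18 paralogs, the stalk proteins, the 3 members with the highest and the 3 with the lowest FPKM in Ctrl, and up to 3 genes of each other list by size of change. Mrpl46 and Mrps11 were added after their values were seen. Across genes, deviations of libraries with the same replicate number had correlations between -0.09 and 0.05, so the numbers were not taken to pair libraries. Overlaps and shared stretches came from GENCODE M21 (GRCm38), and promoter windows from RefSeq (GRCm38.p6), so no coordinates were matched to the counts' own build.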

Additional observations from a re-analysis of the deposited data

How the results depend on the processing

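Scaling had the largest effect among the alternatives, and the cause was not tested. For Cadict against Ctrl, the median log2 fold change of the members was 0.66 with DESeq2 size factors, 0.62 with DESeq2's Wald test, 0.46 without the low-count filter, -0.42 with library totals, -0.49 on log2(FPKM + 0.1), -0.47 on log2(FPKM + 1) and -0.82 on TPM. For Cadict against Cu-Cys it was 0.42 with DESeq2 size factors, 0.24 without the filter, -0.56 with library totals, -0.58 and -0.57 on FPKM and -0.84 on TPM, and for Cu-Cys against Ctrl it was 0.17 on log2(FPKM + 1) and 0.10 on TPM. The large-minus-small median turned to 0.013, 0.020 and 0.022 on log2(FPKM + 0.1), log2(FPKM + 1) and TPM for Cadict against Ctrl. For Cadict against Cu-Cys it was -0.00915, -0.0162 and -0.0159 on these and -0.0720 with subunits taken from the unified names. For Cadict against Ctrl, library totals and both FPKM settings gave 20 members higher and 47 lower at 0.05 and TPM gave 8 and 58, while these settings called 2 higher and 19 lower (TPM 29 lower). For Cadict against Cu-Cys, library totals, FPKM + 0.1, FPKM + 1 and TPM gave 15, 13, 12 and 4 higher and 51, 53, 53 and 59 lower at 0.05, and called 2 higher each and 27, 26, 24 and 34 lower. Without the filter 13 were called higher. For Cu-Cys against Ctrl they gave 28, 23, 25 and 14 higher at 0.05, and 1 lower, as did a minimum of 10 counts.

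Named genes turned direction on those scales, given as library totals, FPKM + 1, FPKM + 0.1 and TPM. For Cadict against Ctrl these were Mrps21 (-0.42, -0.56, -0.56, -0.90), Mrpl42 (-0.59, -0.64, -0.65, -0.99) and Mrpl57 (-0.39, -0.33, -0.39, -0.65), and on TPM alone Mrps18c (-0.0124) and Slc5a3 (-0.0235). For Cadict against Cu-Cys they were Mrps21 (-0.59, -0.69, -0.70, -0.97), Mrpl42 (-0.76, -0.80, -0.81, -1.07), Mrpl57 (-0.42, -0.35, -0.42, -0.61) and Slc5a3 (-0.32, -0.29, -0.32, -0.56), and on TPM alone Mrpl20 (-0.0641), Mrps18b (-0.13), Mrps18c (-0.21) and Mrpl33 (-0.0658). For Cu-Cys against Ctrl they were Mrpl44 (-0.0147, -0.0194, -0.0201, -0.0905), and on TPM alone Mrpl55 (-0.0316), Mrpl17 (-0.0555), Mrpl34 (-0.0552), Mrpl57 (-0.0433), Ddx28 (-0.00229) and Mterf1a (-0.0363). Without each library in turn Mrpl57 lay between -0.0137 (without Cu-Cys replicate 3) and 0.16.

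Leaving out each library in turn gave, for Cadict against Ctrl, 20 to 27 members called higher, 5 to 7 called lower, 48 to 51 higher and 14 to 18 lower at 0.05, a median of 0.35 to 0.65 and a large-minus-small median of -0.22 (without Cadict replicate 3) to -0.0937. For Cadict against Cu-Cys it gave 11 to 20, 8 to 10, 39 to 45 and 19 to 28, a median of 0.18 to 0.41 and a large-minus-small median of -0.15 (without Cu-Cys replicate 2) to -0.0300 (without Cu-Cys replicate 3). For Cu-Cys against Ctrl it gave 0 called, 27 to 55 higher and 0 to 1 lower at 0.05, a median of 0.24 to 0.27 and a large-minus-small median of 0.00494 to 0.0398. The low ends of the counts called higher and of both Cadict medians came without Cadict replicate 2. With the replicate block, 26 and 6 members were called for Cadict against Ctrl and 20 and 8 against Cu-Cys, and 45 were higher in Cu-Cys than in Ctrl at 0.05. The block moved no count of calls by over 1.5 times. Depth limits the lowest genes most, such as Mrpl41 in Cadict.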
